A study of Mus musculus with 4 samples.

Results

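The cell cycle cyclins were followed here in TBV2 cells, a mouse embryonic stem cell (ESC) line, treated with MS-275 (entinostat), an inhibitor of class I histone deacetylases. They comprise Ccnd1, Ccnd2 and Ccnd3 (D-type), Ccne1 and Ccne2 (E-type), Ccna1 and Ccna2 (A-type) and Ccnb1 and Ccnb2 (B-type), and were taken by symbol from the expression tables, giving 9 of 28250 listed genes. Poly(A) RNA was sequenced from cells exposed for 24 h to solvent (0 µM MS-275, n = 2 libraries) or to 5 µM MS-275 (n = 2 libraries). All 4 libraries came from this 1 line, kept with LIF on feeder cells and on gelatin. Which solvent the control libraries received was not resolved, as the control alignments carry an ethanol label whereas DMSO is the vehicle named for the differentiation assay of the study. The labels call the additional library of each condition a duplicate and do not state whether it came from a separate culture, so the p-values below rest on the spread between these libraries, which may be technical. The fits pool that spread over genes of similar level, so a p-value does not measure the spread of its gene alone.

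Cyclins are the regulatory subunits that switch on the cyclin-dependent kinases (CDKs). D-type cyclins bind CDK4 and CDK6 in response to growth signals and begin the inactivation of the retinoblastoma protein, E-type cyclins with CDK2 drive entry into S phase, A-type cyclins act in S and G2 phases, and B-type cyclins with CDK1 drive mitosis. Mouse ESCs are known for a short G1 phase, low D-type cyclin activity and high CDK2 activity, and the levels of most cyclins in dividing cells change with the phase of the cycle.

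Promoter sequence is shown for the B-type cyclins, whose genes are known targets of the CCAAT-binding factor NF-Y and of the MuvB complexes that act through the cell cycle genes homology region (CHR), and for Ccne1, an E-type cyclin whose expression differed least per exon length between the groups. Ccne1 was chosen after its values were seen, and on the deposited values Ccnd3 differed less (log2 fold change -0.04 against -0.07). Whether the letters marked below relate to expression was not tested. RefSeq (GRCm38.p6) gave a promoter for 5 of the 9 cyclins and 6 promoters in all, with none for Ccnd1, Ccnd2, Ccne2 or Ccna2. Each line reads 5′ to 3′ on the strand of the gene, 200 bases up to the base before the transcription start, and capitals mark CCAAT, the CHR letters TTTGAA and E2F-type letters on either strand. The Ccnb1 promoter lies at chr13:100786487-100786686, that of Ccnb2 at chr9:70421555-70421754 and that of Ccne1 at chr7:38107491-38107690, all on the minus strand.
Ccnb1: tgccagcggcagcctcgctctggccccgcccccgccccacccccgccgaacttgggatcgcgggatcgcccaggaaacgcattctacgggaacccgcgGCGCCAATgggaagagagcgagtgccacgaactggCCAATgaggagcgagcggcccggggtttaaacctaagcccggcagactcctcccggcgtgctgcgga
Ccnb2: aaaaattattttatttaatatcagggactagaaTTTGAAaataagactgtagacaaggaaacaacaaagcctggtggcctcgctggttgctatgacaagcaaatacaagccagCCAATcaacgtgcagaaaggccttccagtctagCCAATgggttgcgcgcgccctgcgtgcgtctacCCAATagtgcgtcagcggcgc
Ccne1: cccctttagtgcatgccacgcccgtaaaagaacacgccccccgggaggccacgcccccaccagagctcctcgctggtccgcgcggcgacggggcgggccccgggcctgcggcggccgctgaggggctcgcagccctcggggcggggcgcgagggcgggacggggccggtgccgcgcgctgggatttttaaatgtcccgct
The window searched ran from 250 bases before to 50 bases after the start. Ccnb1 held 2 CCAAT matches, with first bases at -99 and -67 from the start, and 1 E2F-type match (the reverse complement of TTGGCGC) at -102 that overlaps the former CCAAT. Ccnb2 held 3 CCAAT matches, at -87, -54 and -21, and 2 TTTGAA matches, 1 of them downstream of the start and not shown. Ccne1 held none of these letters. Among all 32851 promoters of the same length, 37.4% held at least 1 CCAAT, 11.7% at least 2 and 3.37% at least 3, 17.9% held TTTGAA, and 9.57% held an E2F-type string (TTGGCGC, or its variant TTCCCGC, or TTCGCGC in place of it, or else TTGCCGC). Ccna1 and 1 of the 2 Ccnd3 promoters held 1 CCAAT each, and that Ccnd3 promoter also held the cyclic AMP element core TGACGT, found in 7.51% of all promoters.

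Expression was deposited as 1 normalized value per gene and library. The values of a library summed to between 2490 and 4359, with the larger sums in replicate 2 of both conditions. The aligned reads were deposited as positions on mm9, numbering between 9785619 and 23467935 per library. In solvent and MS-275 alike, the values of a replicate tracked the alignments filed under the other replicate more closely than its own, so the values and alignments of a replicate may not be of the same library; the comparison between conditions pools both. All 10 ESC markers examined, among them Pou5f1, had values above 0 in the 4 libraries, and the 12 markers of feeder fibroblasts were also all above 0. In bulk RNA, fewer cells of a type and less RNA per cell cannot be told apart.

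Ccnd1 was the cyclin with the largest difference between the conditions. Its value was 0.254 and 0.301 with solvent (replicates 1 and 2) and 0.0906 and 0.0658 with MS-275. Both MS-275 libraries lay below both solvent libraries, with group means of 0.278 ± 0.0332 and 0.0782 ± 0.0175 (SD, n = 2). The log2 fold change of value + 0.005 was -1.78, or 3.42-fold lower, with -1.44 in replicate pair 1 and -2.11 in replicate pair 2. Without a block for the replicate, limma gave this difference an adjusted p of 0.0655. With the replicate number as a block, Ccnd1 fell, with a standard error of 0.234 and an adjusted p of 6e-05.

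**Figure D1:**
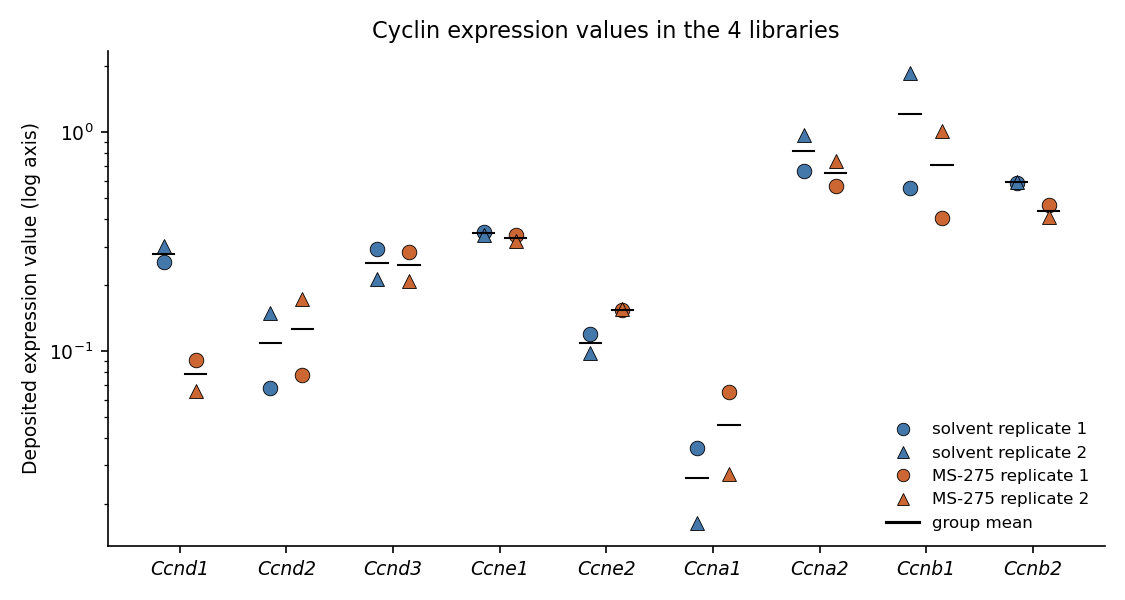
Deposited expression values (log axis) of the 9 cyclins in the 4 libraries, with solvent in blue, MS-275 in orange, circles for replicate 1, triangles for replicate 2 and a bar at the arithmetic mean of each group. Ccnd1 dropped from 0.254 and 0.301 to 0.0906 and 0.0658, whereas the libraries of Ccnd3 and Ccne1 lay at nearly the same values in both groups.

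Over all 9 cyclins, 0 rose and 0 fell without the block (limma, adjusted p under 0.05), where 0.00492% of all 20336 genes tested passed as higher and 0.0% as lower. Since that fit passed 1 gene in all, its 0 calls say nothing about the cyclins. At an unadjusted p under 0.05 this fit counted 0 cyclins as higher and 1 as lower, Ccnd1, beside 14.6% and 2.77% of all genes. With the block 0 rose and 1 fell, beside 21.0% of all genes that rose and 6.46% that fell, and at an unadjusted p under 0.05 the blocked fit counted 2 as higher (Ccne2 and Ccna1) and 2 as lower (Ccnd1 and Ccnb1), beside 28.9% and 10.2%. In limma-voom on distinct alignment positions over exons, Ccnd1 fell also without a block (log2 fold change -1.65 ± 0.226 SE, adjusted p = 0.00622), beside 5.12% of 16962 genes that fell. With the block that measure counted Ccnd1 and Ccnb1 as lower and Ccne2 as higher, beside 14.0% and 29.8% of all genes. On all alignments with the block, repeated positions included, the same 3 cyclins passed, 2 as lower beside 10.3% of all genes and 1 as higher beside 26.3%. Only the alignments of replicate 1 held repeated positions, so for replicate 2 the counts were those of the distinct positions. Of the blocked fits of rescaled values, median-ratio scaling counted 0 cyclins as higher and 3 as lower (Ccnd1, Ccnb1 and Ccnb2), beside 16.6% and 14.1% of all genes, and quantile normalization 0 as higher and 2 as lower (Ccnd1 and Ccnb1), beside 14.4% and 14.6%. In both replicate pairs 6 cyclins were lower, beside 26.5% of all genes, and 3 were higher, beside 50.0%. The groups did not overlap for 2 cyclins that were lower (12.0% of all genes) and 1 that was higher (32.3%). The median log2 fold change of the cyclins was -0.07, against 0.20 for all genes tested, and median-ratio scaling moved these medians to -0.35 and -0.01.

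**Figure D2:**
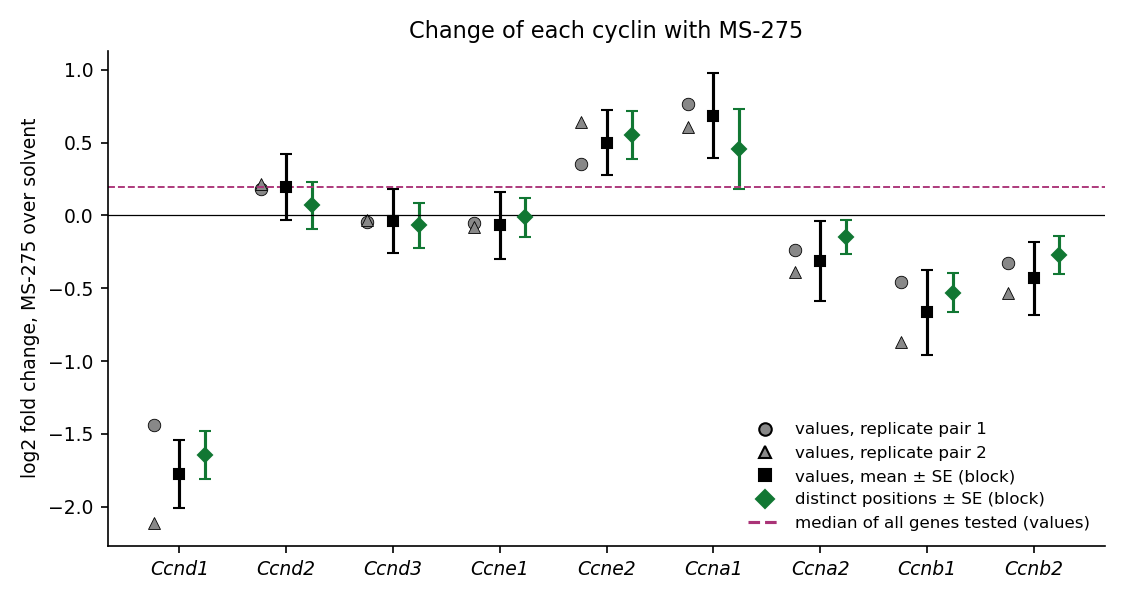
Log2 fold change of each cyclin, MS-275 over solvent, with grey symbols for the 2 replicate pairs, black squares for their mean ± SE from the blocked fit of the deposited values, green diamonds for distinct alignment positions ± SE from the blocked fit, and a dashed line at the median of all genes tested (0.20). Ccnd1 stands at -1.78 and -1.64 on the 2 measures, Ccne2 at 0.50 and 0.55 and Ccnb1 at -0.67 and -0.53.

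For the other D-type cyclins no difference passed in any fit. Ccnd2 (mm9, chr6:127075797-127101066), which like Ccnd1 activates CDK4 and CDK6, had values of 0.0680 and 0.149 with solvent and 0.0778 and 0.174 with MS-275. The replicates of Ccnd2 were farther apart than the conditions, and its log2 fold change of 0.20 (adjusted p = 0.556 with the block) became -0.08 under median-ratio scaling. Ccnd3 (chr17:47642000-47736632), a D-type cyclin best known from blood cells, had values of 0.294 and 0.213 with solvent and 0.285 and 0.208 with MS-275. Its log2 fold change of -0.04 ± 0.220 (SE, adjusted p = 0.920 with the block) was smaller than its error.

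The differences between genes of this class can be read from distinct positions per 1000 exonic bases per 1000000 positions on exons, a level scaled for exon length. Each position counts once, so the level can be compressed, and not equally for all genes. In solvent alignments 1, Ccnb1 had 4152 exonic alignments at 854 positions and Ccnd1 had 1635 at 827. Ccnd1 had 827 and 604 distinct exonic positions in the solvent alignments and 200 and 231 in the MS-275 alignments, and its level was 39.7 and 30.4 with solvent and 11.8 and 10.4 with MS-275. The summed level of Ccnd1, Ccnd2 and Ccnd3 was 80.2 and 73.5 with solvent and 50.9 and 52.7 with MS-275. Ccnd1 made up 49.5% and 41.4% of that sum with solvent and 23.2% and 19.8% with MS-275. The share of Ccnd3 was 35.3% and 49.5% with solvent and 53.2% and 65.6% with MS-275, so that it was the D-type cyclin with the highest level in both MS-275 libraries and in 1 of the solvent libraries.

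**Figure D3:**
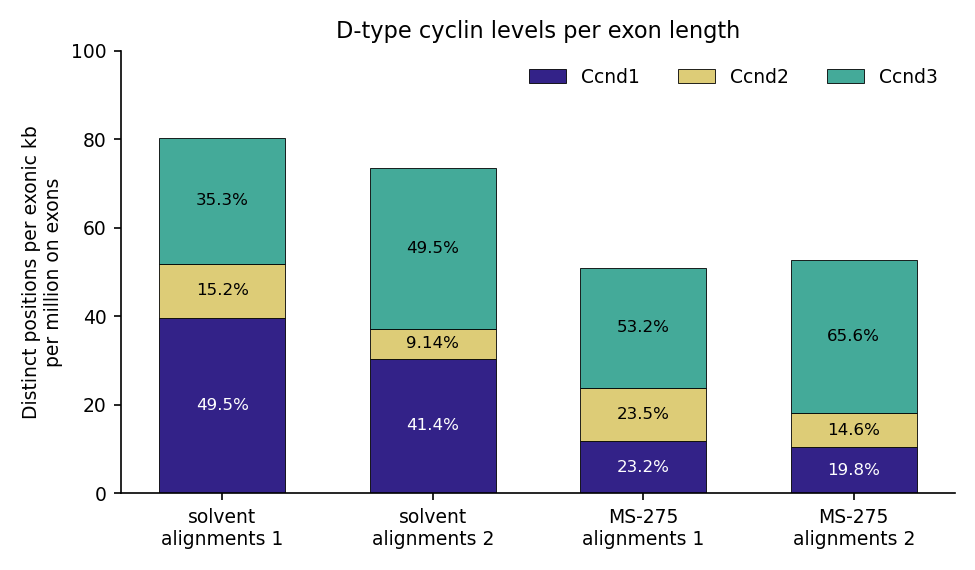
Stacked levels of Ccnd1, Ccnd2 and Ccnd3 in the 4 sets of alignments, in distinct positions per exonic kilobase per 1000000 on exons, with the share of each cyclin printed in its bar segment. The Ccnd1 segment shrank from 39.7 and 30.4 to 11.8 and 10.4, and the summed level from 80.2 and 73.5 to 50.9 and 52.7.

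Ccnd1 lies on the minus strand of chromosome 7 (mm9, chr7:152115836-152125774), and 3017 of its 3835 exonic bases, those shared with no other annotated gene, were counted. Its introns held few positions in this poly(A) RNA, 40 and 33 with solvent and 8 and 6 with MS-275. Per 1000000 positions on exons these were 5.79 and 5.01 against 1.43 and 0.817, and the groups did not overlap. Introns were counted for the cyclins only, so no share of all genes can be set beside this.

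The E-type cyclins are partners of CDK2. Ccne1 (mm9, chr7:38883003-38892553) had values of 0.352 and 0.339 with solvent and 0.339 and 0.319 with MS-275, a log2 fold change of -0.07 (adjusted p = 0.859 with the block). Ccne2 (chr4:11118498-11131926) had values of 0.119 and 0.0978 with solvent and 0.154 and 0.156 with MS-275. Both MS-275 libraries lay above both solvent libraries, and the values differed by 0.50 on the log2 scale (0.36 in pair 1 and 0.64 in pair 2), which did not pass with the block (adjusted p = 0.110). On distinct positions with the block Ccne2 rose (log2 fold change 0.55 ± 0.166 SE, adjusted p = 0.00842), and on all alignments with the block it rose by 0.60 (adjusted p = 0.0440). Without the block the distinct positions gave Ccne2 an adjusted p of 0.104. Ccne2 made up 26.0% and 24.7% of the summed E-type level with solvent and 34.3% and 32.5% with MS-275.

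Ccna2 (mm9, chr3:36463788-36471072), the A-type cyclin of dividing somatic cells, had values of 0.667 and 0.971 with solvent and 0.566 and 0.741 with MS-275. The groups overlapped, and its log2 fold change of -0.31 ± 0.276 (SE) did not pass (adjusted p = 0.434 with the block). Ccna1 (chr3:54849391-54858977), best known from male meiosis, had the smallest values of the 9 cyclins, 0.0361 and 0.0164 with solvent and 0.0648 and 0.0275 with MS-275. It was 1.61-fold higher, by 0.76 in pair 1 and 0.61 in pair 2 on the log2 scale, with overlapping groups and an adjusted p of 0.0939 with the block. Leaving out 1 library moved the log2 fold change of Ccna1 between 0.13 and 1.24 and that of Ccna2 between -0.58 and -0.042. Only 50 to 98 distinct exonic positions per library lay behind Ccna1, and on these the log2 fold change was 0.45 (adjusted p = 0.187 with the block). Ccna2 made up between 88.5% and 93.6% of the summed A-type level in the 4 libraries.

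The B-type cyclins, whose promoters are shown above, were lower in both replicate pairs. Ccnb1 (mm9, chr13:101548605-101556525), the main mitotic cyclin, had values of 0.558 and 1.86 with solvent and 0.405 and 1.01 with MS-275. Its replicates differed more than its conditions, so the groups overlapped although each pair was lower (log2 fold change -0.46 and -0.87, mean -0.67). Over 12929 genes, the values of solvent replicate 2 followed solvent alignments 1 best with repeated positions counted (r = 0.954). Those of solvent replicate 1 followed solvent alignments 2, which held no repeats (r = 0.951). The part of repeated positions in the replicate offset of Ccnb1 was not tested. The Ccnb1 values as deposited did not pass with the block (adjusted p = 0.102). Ccnb1 passed as lower on distinct positions with the block (-0.53 ± 0.136 SE, adjusted p = 0.00240), on all alignments with the block (-0.80, adjusted p = 0.00708), and in the blocked fits of the values after median-ratio scaling (adjusted p = 0.0122) and quantile normalization (adjusted p = 0.00536). Without solvent replicate 2, the library with the highest Ccnb1 value, the log2 fold change of Ccnb1 was 0.20. That fit had no block and set solvent replicate 1 (0.558) against both MS-275 libraries (0.405 and 1.01), so it carries the offset between replicates.

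Ccnb2 (mm9, chr9:70255496-70269361), the other mitotic cyclin, had values of 0.584 and 0.595 with solvent and 0.464 and 0.410 with MS-275. The groups did not overlap, and the log2 fold change was -0.43 ± 0.251 (SE, adjusted p = 0.218 with the block). Ccnb2 passed as lower after median-ratio scaling with the block (-0.72, adjusted p = 0.0309), where 14.1% of all genes were lower, and not on distinct positions with the block (-0.27 ± 0.132 SE, adjusted p = 0.101). Ccnb1 had 46.0 and 59.1 intronic positions per 1000000 on exons with solvent and 32.6 and 32.5 with MS-275, and Ccnb2 had 23.9 and 36.0 with solvent and 21.2 and 21.8 with MS-275. For both genes the 2 groups did not overlap in these intronic positions. Ccne1, which differed little on exons, was also lower there without overlap (19.5 and 20.5 with solvent, 18.5 and 15.5 with MS-275). Ccna1 was higher without overlap (1.45 and 1.82 with solvent, 2.14 and 2.86 with MS-275). These Ccna1 rates rest on only 10 and 12 intronic positions with solvent and 12 and 21 with MS-275, and the groups were not apart before scaling. As for Ccnd1, no share of all genes can be set beside these intronic comparisons. The intronic positions of Ccnd2, Ccnd3, Ccne2 and Ccna2 overlapped. The annotation also names the pseudogenes Ccnb2-ps and Ccnd3-ps, and how the deposited values treat reads shared with them is not given, so the values of Ccnb2 and Ccnd3 are uncertain to that extent.

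On distinct positions per exon length, Ccnb2 and Ccna2 had the highest levels with solvent. In distinct positions per exonic kilobase per 1000000, Ccnb2 averaged 80.0 ± 9.27 (SD, n = 2) and Ccna2 72.9 ± 5.05, and these neighbours overlapped. Ccne1 followed with 40.9 ± 0.963. Ccnd1 (35.0 ± 6.55), Ccnd3 (32.3 ± 5.68) and Ccnb1 (29.3 in both libraries) came next, with Ccnd1 overlapping Ccnd3 and Ccnd3 overlapping Ccnb1. Ccne2 averaged 13.9 ± 1.01, Ccnd2 9.47 ± 3.90 and Ccna1 5.17 ± 0.646, with no overlap between neighbours. With MS-275, Ccnd1 moved from rank 4 to rank 7 of the 9 at 11.1 ± 0.988, where its libraries lay within the range of Ccnd2 (7.69 to 12.0) and below those of Ccne2 (18.8 to 21.9). Ccne2 then overlapped Ccnb1 (18.9 to 21.8), and Ccnb2 and Ccna2 stayed at ranks 1 and 2 with overlapping libraries. This order depends on the measure. Counted with repeated positions, solvent alignments 1 gave Ccna2 103.3, Ccnb2 86.0, Ccnb1 57.0, Ccne1 36.8 and Ccnd1 31.4, so that Ccnb1 stood above Ccne1 and Ccnd1, and the mean deposited value of Ccnb1 with solvent, 1.21, was the highest of the 9.

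By the distance between the 4 centred log2 values, the genes most like Ccnd1 among 10154 genes of similar mean were Cdk6 (distance 0.106), Gjb1 (0.153) and Rcbtb2 (0.188). Those most like Ccna1 among 10774 genes were Dennd3 (0.0260), Wdr91 (0.0721) and Tenc1 (0.0787), and each likeness rests on 4 libraries.

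The lists below are described by their counts in the blocked fit of the deposited values, in which 21.0% of all genes rose and 6.46% fell, and counts lower in both pairs stand beside 26.5% of all genes. The 7 blocked alternatives are this fit, the same at 2 other pseudocounts and after 2 rescalings, and limma-voom on distinct positions and on all alignments.

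The catalytic partners of the cyclins were set beside them. Cdk6, the kinase that D-type cyclins share with Cdk4, had values of 0.0623 and 0.0744 with solvent and 0.02003 and 0.0119 with MS-275. Both MS-275 libraries lay below both solvent libraries, and Cdk6 fell by 1.83 on the log2 scale (adjusted p = 0.000437 with the block, 0.151 without). Cdk4 had values of 0.756 and 2.39 with solvent and 0.6001 and 1.51 with MS-275, which overlapped (adjusted p = 0.280 with the block, passing as lower in 3 of 7 blocked alternatives). Cdk2 had 0.367 and 0.389 with solvent and 0.277 and 0.289 with MS-275 (adjusted p = 0.194, passing as lower in 2 of 7), and Cdk1 had 0.698 and 1.73 with solvent and 0.730 and 2.40 with MS-275 (adjusted p = 0.598). Among 13 CDKs and their activators, 0 rose and 2 fell with the block, namely Cdk6 and Wee1, the kinase that holds CDK1 inactive, which had values of 0.283 and 0.303 with solvent and 0.167 and 0.0758 with MS-275 (adjusted p = 0.00141). The phosphatase gene Cdc25b and the CDK-binding Cks2 had the largest positive log2 fold changes of that list, 0.47 and 0.39. Neither passed on the deposited values, and Cdc25b passed as higher on distinct positions with the block (adjusted p = 0.0297). The median of the list was -0.20.

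Among 8 genes for CDK inhibitors, 4 rose and 1 fell with the block, and their median log2 fold change was 0.89. Cdkn2a, whose products restrain CDK4 and CDK6 and stabilize p53, had values of 0.0183 and 0.0436 with solvent and 0.168 and 0.385 with MS-275 (log2 fold change 2.95, adjusted p = 1e-06 with the block). Its neighbour Cdkn2b, which encodes an inhibitor of CDK4 and CDK6, had 0.00667 and 0.00680 with solvent and 0.0704 and 0.0761 with MS-275 (2.74, adjusted p = 1.4e-05). Cdkn1c and Cdkn2c also rose, by 2.32 and 1.10 on the log2 scale, with adjusted p of 0.000276 and 0.02 in the blocked fit, and Cdkn2c lost its call after quantile normalization with the block (adjusted p = 0.170). Cdkn1b, which encodes p27, fell from 0.329 and 0.678 to 0.143 and 0.298, by 1.17 on the log2 scale (adjusted p = 0.00126 with the block). Cdkn1a, which encodes p21, had values of 0.335 and 0.352 with solvent and 0.375 and 0.821 with MS-275. The Cdkn1a groups did not overlap, and the adjusted p was 0.0748 with the block. Cdkn1a passed as higher in 3 of 7 blocked alternatives, on distinct positions (adjusted p = 0.00769), on all alignments (0.0300) and after quantile normalization (0.0162).

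Cyclins of other classes, 16 genes that mostly serve transcription or have specialised roles, had a median of -0.01 with 2 that rose and 3 that fell in the blocked fit. Ccnb3, a B-type cyclin of germ cells, was near the floor with solvent (0.00116 and 0.000560) and had 0.0377 and 0.0178 with MS-275, a log2 fold change of value + 0.005 of 2.41 (adjusted p = 3.8e-05 with the block). Ccno, a cyclin of multiciliated cells, rose from 0.0133 and 0.0129 to 0.0496 and 0.0349 (adjusted p = 0.00380 with the block). Ccnl1 and Ccnl2, cyclins linked to splicing, fell by 0.98 and 0.99 on the log2 scale, and Ccnt2, a subunit of the elongation factor P-TEFb, fell by 0.74 (adjusted p = 0.0419 with the block, and 0.0505 with it at a pseudocount of 0.001). These 2 and 3 of 16 stand beside 21.0% of all genes that rose and 6.46% that fell. On distinct positions with the block, 4 rose and 4 fell, beside 29.8% and 14.0%. Counts this small are not read as a result about the list.

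Among 19 genes of the retinoblastoma, E2F and MuvB factors, the regulators that act on cyclin promoters, 2 rose and 4 fell with the block, and the median was -0.23. Rb1, the retinoblastoma gene, rose from 0.195 and 0.103 to 0.315 and 0.272 (adjusted p = 0.00434 with the block), and E2f2 by 0.95 on the log2 scale (adjusted p = 0.0393). E2f2 passed in only 3 of 7 blocked alternatives and lost its call after median-ratio scaling (0.0745) and quantile normalization (0.0805) and at pseudocounts of 0.001 (0.0556) and 0.02 (0.0731). Mybl2, the MuvB partner that activates mitotic genes, fell from 0.649 and 1.08 to 0.455 and 0.202 (adjusted p = 0.00529 with the block), and Foxm1, another activator of mitotic genes, fell from 0.228 and 0.136 to 0.162 and 0.0719 (adjusted p = 0.0343). The MuvB subunits Lin52 and Lin9 fell by 0.75 and 0.64 on the log2 scale, with adjusted p of 0.0425 and 0.0395 in the blocked fit, and Lin52 had 0.0654 at a pseudocount of 0.02.

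Of 15 genes for cyclin degradation, 0 rose and 1 fell with the block, with a median of -0.24. That gene was Cul1, the scaffold of the SCF ubiquitin ligases, at 0.357 and 0.383 with solvent and 0.188 and 0.0865 with MS-275 (adjusted p = 0.000629). Anapc2, Fbxo31 and Anapc11 had log2 fold changes of -0.60, 0.37 and 0.36 and did not pass on the deposited values. Anapc2 passed as lower in 4 of 7 blocked alternatives, on distinct positions (adjusted p = 0.00926), on all alignments (0.0487), and on the values under median-ratio scaling (0.00409) and under quantile normalization (0.0133).

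The targets of the G1/S and G2/M transcription programmes were mostly lower in both replicate pairs. For G1/S targets, 15 of 16 were lower in both pairs, 0 rose and 3 fell with the block, and the median log2 fold change was -0.51. Those that fell were the uracil glycosylase gene Ung (0.303 and 0.429 with solvent, 0.180 and 0.144 with MS-275) and the replicative helicase genes Mcm5 (by 0.93 on the log2 scale) and Mcm2 (by 0.92), while Slbp stood at 0.21 and did not pass. For the 15 G2/M targets analysed, 13 were lower in both pairs, 0 rose and 1 fell with the block, the mitotic kinesin gene Kif11 (0.454 and 0.619 with solvent, 0.348 and 0.213 with MS-275, adjusted p = 0.0174), and the median was -0.41. The proliferation marker Mki67 had a log2 fold change of -0.65 (adjusted p = 0.0589 with the block, passing as lower in 4 of 7 blocked alternatives), and Birc5 and Cenpf stood at 0.20 and 0.05. At an unadjusted p under 0.05, the blocked fit counted 7 G1/S and 5 G2/M targets as lower and 0 of either as higher, beside the 10.2% and 28.9% of all genes given above. In limma-voom on distinct positions with the block, where 29.8% of all genes rose and 14.0% fell, 0 rose and 11 fell of the G1/S targets, 0 rose and 8 fell of the G2/M targets, 1 rose and 6 fell of the CDKs and their activators, 0 rose and 4 fell of the degradation genes, 3 rose and 9 fell of the retinoblastoma, E2F and MuvB factors, 4 rose and 4 fell of the other cyclins, and 5 rose and 1 fell of the 7 CDK inhibitors counted there.

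**Figure D4:**
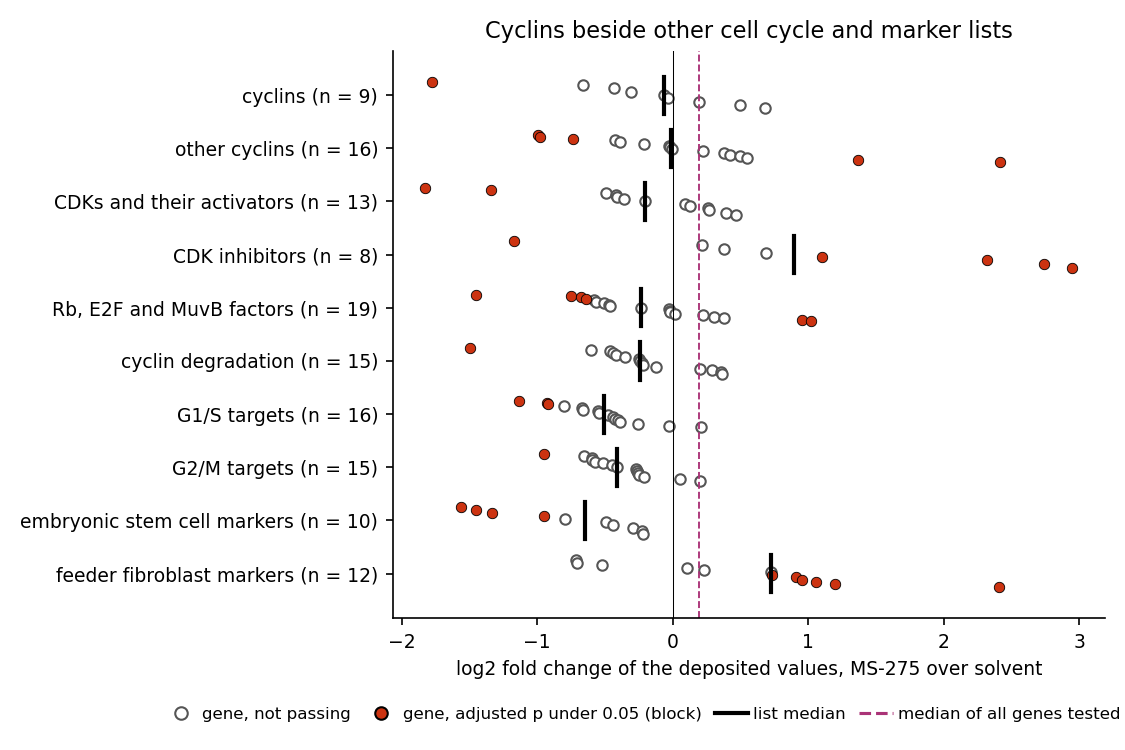
Log2 fold change of every tested gene in 10 lists, MS-275 over solvent, with filled red points for an adjusted p under 0.05 in the blocked fit, open points for the rest, a black bar at each list's median and a dashed line at the median of all genes tested (0.20). The medians ran from -0.65 for ESC markers and -0.51 for G1/S targets to 0.89 for CDK inhibitors, and Ccnd1 is the red point of the cyclins at -1.78.

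Some markers of the ESC state and of feeder fibroblasts differed between the conditions. All 10 ESC markers were lower in both pairs and 4 fell with the block, among them Fgf4 (0.573 and 0.397 with solvent, 0.269 and 0.0922 with MS-275) and Utf1 (0.425 and 0.657 against 0.299 and 0.120), together with Esrrb and Pou5f1. Pou5f1 (adjusted p = 0.0473) lost its call with the block at pseudocounts of 0.001 (0.0546) and 0.02 (0.0705). The other ESC markers, Nanog, Sox2, Zfp42, Klf4, Dppa5a and Tdgf1, did not pass in this fit. Dppa5a was nearly level in pair 1 (log2 fold change -0.0017) and stood at 0.08 on distinct positions with the block. The summed value of the 10 ESC markers was 6.08 and 23.2 with solvent and 4.83 and 13.6 with MS-275. Among 12 fibroblast markers, 6 rose and 0 fell with the block, against 4 and 2 after median-ratio scaling and 3 and 3 after quantile normalization, both with the block. They had a summed value of 1.57 and 2.66 with solvent and 1.75 and 2.29 with MS-275. The collagen genes Col1a1 (0.0146 and 0.0101 with solvent, 0.0681 and 0.110 with MS-275) and Col1a2, the receptor gene Pdgfrb, and Acta2, Thy1 and Lum rose. With the block, Acta2 lost its call after median-ratio scaling (adjusted p = 0.0786) and quantile normalization (0.212), Lum after both (0.0643 and 0.479) and at a pseudocount of 0.02 (0.0597), and Pdgfrb after quantile normalization (0.0628). Fn1 and Dcn had log2 fold changes of -0.71 and -0.72 and did not pass on the deposited values. In the blocked alternatives, Fn1 passed as lower in 4 of 7 (adjusted p = 0.000667 on distinct positions) and Dcn in 2 of 7, after median-ratio scaling (0.0220) and quantile normalization (0.00650). The collagen gene Col3a1 had 0.00992 and 0.0156 with solvent and 0.00692 and 0.00755 with MS-275, and did not pass (adjusted p = 0.206 with the block). With the block Col3a1 passed as lower on distinct positions (0.0259), on all alignments (0.0418) and after quantile normalization (0.0153). Col5a1 did not pass either (0.0716), and passed as higher with the block on distinct positions (0.000424) and on all alignments (0.0105). On distinct positions with the block, 0 ESC markers rose and 5 fell (29.8% and 14.0% of all genes), and 7 fibroblast markers rose and 2 fell. The part of either cell state or of feeder cells in the cyclin values was not tested.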

How the data were processed

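RNA-seq of TBV2 ESCs, 2 solvent and 2 MS-275 libraries (24 h, 5 µM), was grouped by title, and the duplicate of each condition was taken as replicate 2. The signal values were deposited by the authors after mapping to mm9 and normalization with Genomatix; the aligner, formula and versions are not given in the sources used here, nor is the treatment of reads that overlapping genes or pseudogenes share. Values are not counts, and the depth behind a value is unknown. The tables of ratios between libraries hold the authors' own comparisons and were not used, nor were the shorter tables of values.

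The 20336 genes that reached 0.001 in 2 or more libraries were tested with limma 3.58.1 in R 4.3.3 (lmFit, eBayes with a trend) on log2(value + 0.005), two-sided, with Benjamini-Hochberg adjustment over all of them and a threshold of 0.05. A small value is understated in fold by the pseudocount. The libraries were also paired by replicate number (the block), since the headers of the authors' shorter tables mark replicate 1 of solvent and of MS-275 alike as old, and since same-numbered libraries deviated together from their groups (r = 0.764 over 20336 genes, and 0.552 over 16962 genes at distinct positions). Blocked values are given where they change a call or a count. The block leaves few residual degrees of freedom, so eBayes draws the variance of a gene largely from genes of similar value. Mybl2, at -0.51 and -2.39 in the 2 pairs, thus had a blocked SE of 0.343. Ccnd2, at 0.18 and 0.21, had 0.226.

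From the deposited alignments (35 bases each), distinct positions on unshared exonic bases of GENCODE M1 genes on mm9 were counted without regard to strand and tested with limma-voom where at least 10 lay in at least 2 libraries; positions on exons numbered 5608253 to 7346036 per library. Of the alignments deposited for replicate 1, 53.2% (solvent) and 54.4% (MS-275) repeated a position, against 0.0% for replicate 2. The limma-voom errors, like those of the values, rest on the spread between the 4 libraries, pooled over genes. Correlation of values with alignments used 12929 genes, which are not independent replicates. Python 3.11.15, numpy 2.4.6, pandas 2.3.3 and matplotlib 3.10.9 were used.

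The cyclins and the 9 other lists (133 of 134 entries analysed here) were chosen with earlier results of these data known. The genes named are the 9 cyclins, up to 2 tested genes with the largest and 2 with the smallest log2 fold change of each other list, and 3 genes nearest to each of the 2 cyclins that differed most; 16 more (Ccnt2, Cdk1, Cdk2, Cdk4, Cdkn1a, Cdkn1c, Cdkn2c, Foxm1, Lin9, Mcm2, Esrrb, Pou5f1, Col1a2, Acta2, Thy1 and Lum) were chosen after their values were seen. Col3a1, Col5a1, Nanog, Sox2, Zfp42, Klf4, Dppa5a and Tdgf1 were also named after their values were seen. They are outside those 16 and outside the genes counted under the alternatives. Promoters came from RefSeq (GRCm38.p6), other coordinates from mm9. The fits were tested on simulated data. Alternatives were the block, pseudocounts of 0.001 and 0.02, no filter, a mean of at least 0.01, quantile and median-ratio scaling, eBayes without a trend, limma-voom on distinct positions and on all alignments, and each library left out.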

Additional observations from a re-analysis of the deposited data

How the results depend on the processing

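The replicate block changed the calls most. Without it 1 gene was higher and 0 were lower, and with it 4277 were higher and 1314 lower (median-ratio scaling 3379 and 2864, quantile normalization 2936 and 2961, pseudocount 0.001 4216 and 1220, pseudocount 0.02 3790 and 1158, distinct positions 5053 and 2367, all alignments 4548 and 1781). Without the block, distinct positions gave 2558 and 868, a mean value of at least 0.01 gave 466 and 65, and both pseudocounts, no filter, either scaling and eBayes without a trend gave 0 higher. For the cyclins, 0 were lower without the block, 1 with the block, with the block at either pseudocount, at a mean of at least 0.01 and on distinct positions, 2 with the block after quantile normalization, on distinct positions and on all alignments, and 3 after median-ratio scaling with the block. The cyclins called higher were 1 on distinct positions and on all alignments with the block and 0 otherwise. The median log2 fold change of the cyclins, -0.07, was -0.35 after median-ratio scaling with or without the block and -0.13 on all alignments.

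Ccnd1 passed in 7 of 7 alternatives with the block and in 2 of 12 without, and its log2 fold change stayed between -2.05 and -1.56. Ccnb1 passed in 4, Ccne2 in 2 and Ccnb2 in 1 of 7 with the block. Leaving out 1 library gave 0 to 160 genes higher and 0 to 29 lower, with 0 cyclins called and a median of -0.34 to -0.042. These fits have 1 library in a group, which is assumed to vary like the other group, and carry the offset between replicates. A blocked fit on 3 libraries has no residual degrees of freedom, so it was not run. Their ranges were -1.99 to -1.56 for Ccnd1, -0.36 to 0.75 for Ccnd2, -0.27 to 0.19 for Ccnd3, -0.11 to -0.025 for Ccne1, 0.36 to 0.64 for Ccne2, 0.13 to 1.24 for Ccna1, -0.58 to -0.042 for Ccna2, -0.52 to -0.34 for Ccnb2, -1.53 to 0.20 for Ccnb1, -0.95 to 1.74 for Cks2, -0.095 to 0.83 for Fbxo31, -0.14 to 0.86 for Anapc11, -0.28 to 0.70 for Slbp, -0.45 to 0.86 for Birc5, -0.13 to 0.23 for Cenpf, -1.48 to 0.048 for Dcn, -0.59 to 1.12 for Cdk1 and -1.32 to 0.33 for Cdk4. Ccnd2 turned negative without solvent replicate 1 (-0.34) and without MS-275 replicate 2 (-0.36), and Ccnd3 positive without the same libraries (0.19 and 0.18).

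Median-ratio scaling, with or without the block, turned Ccnd2 (-0.079), Cdk1 (-0.022), Slbp (-0.078), Birc5 (-0.083) and Cenpf (-0.23), and quantile normalization turned Cenpf (-0.0014). Distinct positions turned Cks2 (-0.070), Birc5 (-0.035, and -0.040 with the block) and Cenpf (-0.090, and -0.082 with the block), and all alignments turned Cenpf (-0.15). The cause of these changes was not tested. For 62 of the genes named, 831 of the values under the 19 alternatives kept their direction and their side of the threshold, 309 passed newly and 37 reversed. The reference was the fit without a block, in which none of these genes passed, so no call could be lost. The 831 are therefore no measure of how stable the blocked calls are. The median of the other cyclins, -0.01, was 0.0003 after quantile normalization.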
